A study of Mus musculus with 8 samples.

Results

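The collagen genes were followed in mouse embryos, in tissue that joined the branchial arches with the looping heart, at 10.5 days post coitum. Members were all gene symbols of the deposited raw count table that consist of Col, a type number, the letter a and a chain number, which gave 44 of 23420 genes. They comprised 11 fibrillar genes, 6 basement membrane genes and 27 genes of other types. Arches and heart came from 4 individual Pygo2 mutant embryos and 4 wild-type littermates, with 1 ribosome-depleted total RNA library per embryo. Pygo2 encodes a PHD-finger protein that works with Bcl9 proteins and β-catenin in Wnt-dependent transcription. The labels give the genotypes as Pygo2 mutant and Pygo2 wild-type and do not say which allele or part of the gene was altered, and the comparison asks which genes differ in this tissue when Pygo2 is mutated.

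Collagens are secreted or membrane proteins built from 3 chains wound into a triple helix, with glycine repeated along each chain. Fibrillar collagens assemble into the cross-striated fibrils of connective tissue and cartilage. Type IV collagen forms the sheet-like network of basement membranes under epithelia and endothelia and around muscle cells. The remaining types decorate fibrils, form beaded filaments, anchor epithelia, span the cell membrane or sit at the outer face of basement membranes.

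Library totals ran from 2.33e+07 to 2.78e+07 counts in mutants and from 2.08e+07 to 2.82e+07 counts in wild-type embryos. Pygo2 was at 19.3 ± 1.99 CPM in mutants and 51.0 ± 5.2 CPM in wild-type embryos (counts per 1000000 of the TMM-scaled library, SD, n = 4 each), without overlap, and its log2 fold change of -1.40 (SE 0.12) passed the threshold (edgeR quasi-likelihood adjusted p = 0.00805). Left out in turn, mutant 2, 3 or 4 or wild-type 1 or 2 took that adjusted p above 0.05, to at most 0.0973, with log2 values from -1.46 to -1.35. All 8 cardiomyocyte markers and all 7 markers of arch mesenchyme were detected in the series. Markers of neural tube and neurons were present too, with a summed level from 33.3 to 644 CPM in mutants and from 52.2 to 531 CPM in wild-type embryos. Erythroid markers summed to between 2872 and 9461 CPM in mutants and between 4841 and 23845 CPM in wild-type embryos.

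A few chains made up most of the collagen RNA. The 44 genes together reached 5752, 4969, 3688 and 4036 CPM in mutants 1 to 4, against 4851, 4783, 3788 and 4104 CPM in wild-type embryos 1 to 4. Mutant 1 was the highest and mutant 3 the lowest of the 8 libraries, and the groups overlapped. The 5 most abundant members by CPM held 58.5% of collagen CPM. Fibrillar genes made up 53.2 ± 3.30% of collagen CPM in mutants and 51.2 ± 2.43% in wild-type embryos, while basement membrane genes made up 21.01 ± 3.98% in mutants and 20.8 ± 2.73% in wild-type embryos (SD, n = 4 each). The other types made up 25.8 ± 1.12% in mutants and 28.0 ± 1.63% in wild-type embryos. For each of these shares the groups overlapped.

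Levels of different genes were compared as CPM per kb of exon, which allows for the length of the RNA. On that scale Col3a1 was first at 177 CPM per kb over the 8 libraries, followed by Col4a1 at 81.6, Col18a1 at 68.5, Col1a2 at 58.4 and Col2a1 at 56.7 CPM per kb. Col5a2 at 49.8, Col4a2 at 44.1, Col9a1 at 43.6 and Col26a1 at 38.3 CPM per kb came next. The order depends on the length used. With all annotated exons as the length, Col3a1 (100.4 CPM per kb), Col4a1 and Col18a1 stayed the first 3. Col4a2 and Col9a1 then ranked 4 and 5, while Col2a1 ranked 7 at 31.3, Col1a2 ranked 8 at 25.1 and Col26a1 ranked 12 at 13.05 CPM per kb. Several neighbours in this order lay within each other's spread between libraries, among them Col1a2 and Col2a1, or Col4a2 and Col9a1. At the other end 7 members averaged under 1 CPM. Col10a1, the network collagen of hypertrophic cartilage, had 0 counts in all 8 libraries, which allows up to 3 counts per library or 0.106 to 0.144 CPM.

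**Figure D1:**
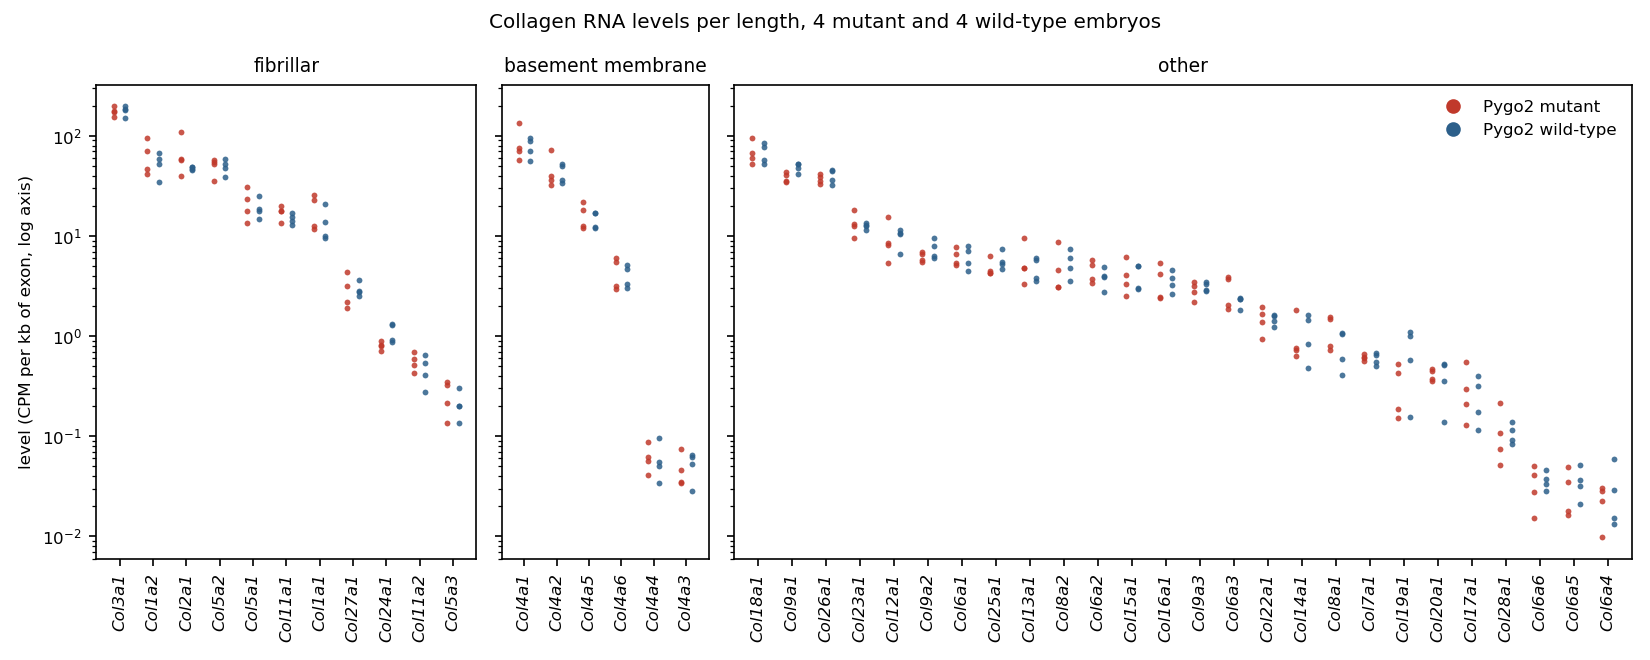
Level of each collagen gene in CPM per kb of exon (log axis) in the 4 mutant libraries (red, left of each pair) and the 4 wild-type libraries (blue), in 3 panels by class and in falling order of the mean. Col3a1 stands highest at 177 CPM per kb on average, and Col10a1, at 0 counts throughout, is not drawn.

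Across the family 0 of the 40 tested members were called higher and 0 lower in mutants, at an adjusted p under 0.05 (edgeR quasi-likelihood). The remaining 4 members, Col10a1, Col6a4, Col6a5 and Col6a6, were too low to test. The 3 type VI chains among them averaged 0.169, 0.275 and 0.307 CPM in mutants and 0.216, 0.329 and 0.334 CPM in wild-type embryos. With the quasi-likelihood test of edgeR the called share over all 14861 tested genes was 0.0% higher and 0.00673% lower, and no collagen had an adjusted p below 0.99997. Before adjustment, 0 collagens higher and 2 lower had p under 0.05: Col9a1 and Col24a1, where all tested genes had 0.484% and 0.814%. DESeq2 and limma-voom called 0 collagens as well and had the same pair at an unadjusted p under 0.05. The authors' deposited table lists 37 collagens, 0 of them under a false discovery rate of 0.05. In that table, made from the same libraries, Col9a1 also had the smallest p of the family, 0.0117, with a log2 fold change of -0.33. In no collagen did the groups part without overlap, as 0.484% of tested genes did with mutants higher and 0.559% with mutants lower. Because tissue pieces were sequenced whole, fewer cells of a type and less RNA per cell cannot be told apart.

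The log2 fold change of mutant over wild-type was above 0 for 26 and below 0 for 14 of the 40 tested collagens, with a median of 0.04, against 50.0% above 0 and a median of -1.31e-05 over all tested genes. Without mutant 1 it was above 0 for 14. Mutant 1 was the highest of the 8 libraries for 15 collagens, and mutant 3 and wild-type 3 were each the lowest for 10. The labels number the libraries 1 to 4 in both genotypes, and same-numbered libraries deviated from their group means in the same direction on balance, though mutants 2 and 4 correlated better with wild-type 1 and wild-type 3 than with their own number. Mutants lay above their same-numbered wild-type in 4 of 4 pairs for 3 collagens, Col11a1, Col4a5 and Col8a1, and below it for 4, Col24a1, Col9a1, Col9a2 and Col9a3. Over all tested genes these shares were 6.27% and 5.88%. Some of the differences within pairs were small, as in pair 4 of Col4a5 and pair 1 of Col9a3.

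**Figure D2:**
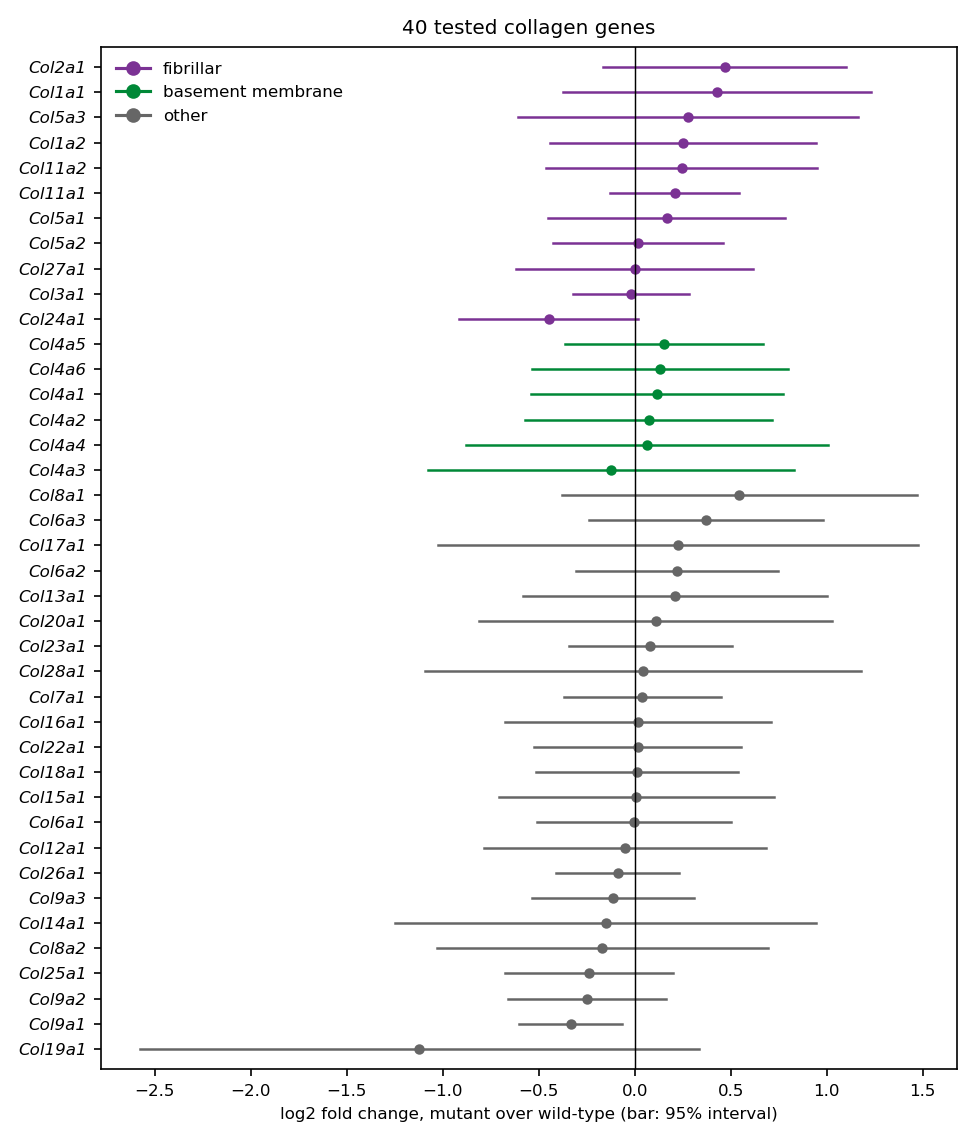
Log2 fold change of mutant over wild-type for the 40 tested collagens, with 95% intervals as bars, by class and in falling order. The interval of Col9a1 alone lies on one side of 0, and after adjustment over all genes it did not pass.

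Fibrillar collagens were led by Col3a1, whose homotrimer builds the fine reticular fibrils of soft tissue. Col3a1 (ENSMUSG00000026043.18, chromosome 1, 45311538 to 45349706, plus strand) was at 960, 1105, 857 and 997 CPM in mutants, against 1004, 1096, 834 and 1035 CPM in wild-type embryos. It was among the steadiest abundant collagens, with overlapping groups, a coefficient of variation of 10.5% in mutants and 11.3% in wild-type embryos and a log2 fold change of -0.02 (95% interval -0.32 to 0.28). Col1a2, the α2 chain of type I collagen (chromosome 6, 4504814 to 4541544, plus strand), varied more, at 378, 505, 222 and 252 CPM in mutants and 359, 281, 183 and 317 CPM in wild-type embryos. Its library order differed between genotypes, with mutant 2 the highest and wild-type 3 the lowest of all, and the log2 fold change was 0.25 (-0.44 to 0.95). The promoter windows of both genes are shown as those of the most abundant collagen and of the most abundant type I chain. They run from 250 bases before to 50 after the start annotated in RefSeq (GRCm38.p6). Capitals mark the GC box (GGGCGG), the CCAAT box and TATAAA on either strand. The RefSeq start of Col1a2, at 4505618, lies downstream of the GENCODE M21 start at 4504814, so its window lies within the quoted gene span.
Col3a1, chr1:45311288-45311587, plus strand: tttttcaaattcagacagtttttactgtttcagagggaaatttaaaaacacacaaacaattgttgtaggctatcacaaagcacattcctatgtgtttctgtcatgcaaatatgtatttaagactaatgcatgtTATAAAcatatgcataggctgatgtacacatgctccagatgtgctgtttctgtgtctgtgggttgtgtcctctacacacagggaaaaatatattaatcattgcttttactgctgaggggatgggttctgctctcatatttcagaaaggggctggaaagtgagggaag
Col1a2, chr6:4505368-4505667, plus strand: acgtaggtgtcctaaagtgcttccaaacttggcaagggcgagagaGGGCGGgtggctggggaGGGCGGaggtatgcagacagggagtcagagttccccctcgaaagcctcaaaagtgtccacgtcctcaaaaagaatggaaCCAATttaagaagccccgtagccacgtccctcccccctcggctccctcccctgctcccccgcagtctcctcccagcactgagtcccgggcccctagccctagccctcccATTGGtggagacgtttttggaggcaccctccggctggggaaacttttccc
The Col3a1 window is 37.7% G or C, with 1 TATAAA and no GC or CCAAT box. The Col1a2 window is 61.0% G or C, with 2 GC boxes and 2 CCAAT boxes.

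Col2a1, the chain of type II collagen and a marker of notochord and cartilage precursors, was uneven among mutants and even among wild-type embryos. Col2a1 (ENSMUSG00000022483.17, chromosome 15, 97975602 to 98004695, minus strand) was at 553, 290, 203 and 298 CPM in mutants, against 247, 250, 240 and 234 CPM in wild-type embryos. Mutant 1 was the highest and mutant 3 below every wild-type library. Dixon's outlier test did not set mutant 1 apart. The wild-type libraries held within a coefficient of variation of 3.004%. The log2 fold change was 0.47 (SE 0.26, interval -0.17 to 1.10), and 0.13 without mutant 1 (3 mutants at 264 ± 52.7 CPM). Without mutant 3 it was 0.65 (edgeR unadjusted p = 0.0167).

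Col11a1, a minor fibril chain that co-assembles with type II collagen, was at 103, 135, 152 and 137 CPM in mutants and 98.3, 109, 118 and 131 CPM in wild-type embryos. Each mutant was above its same-numbered wild-type, but the ranges overlapped and the log2 fold change of 0.21 (interval -0.13 to 0.54) did not pass. Its order over libraries ran against that of Col2a1 in mutants, with library 1 lowest in both genotypes. Col24a1, a fibrillar chain of developing bone and cornea, was the fibrillar member with the smallest p. Col24a1 (chromosome 3, 145292472 to 145552011, plus strand) was at 5.10, 6.44, 5.73 and 5.78 CPM in mutants and 6.22, 9.19, 6.60 and 9.42 CPM in wild-type embryos. Only mutant 2 reached into the wild-type range, and the log2 fold change was -0.45 (SE 0.19, interval -0.91 to 0.02; edgeR unadjusted p = 0.0422, adjusted p = 0.99997). An annotated gene overlaps Col24a1 on the other strand, as for 18 of the 44 members, and with the strand setting (not given in the sources used here) unknown, reads of such partners cannot be told apart.

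The other fibrillar genes had overlapping groups as well. Col5a2, which helps start fibrils, was at 366, 383, 346 and 232 CPM in mutants and 394, 316, 344 and 257 CPM in wild-type embryos, with library 4 lowest in both genotypes and a log2 fold change of 0.02 (interval -0.43 to 0.46). Its partner Col5a1 was at 180 ± 63.6 CPM in mutants and 161 ± 35.9 CPM in wild-type embryos (SD, n = 4 each). Col1a1, the α1 chain of type I collagen, was at 108 ± 42.7 CPM in mutants and 80.5 ± 31.6 CPM in wild-type embryos. For Col1a1 the log2 fold change was 0.43 (interval -0.37 to 1.23). Col27a1, a cartilage collagen, was at -0.00 on that scale, and the sparse chains Col11a2 and Col5a3 at 0.24 and 0.28. Over the 11 fibrillar genes 8 were above and 3 below 0, with a median of 0.21 and 0 calls.

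**Figure D3:**
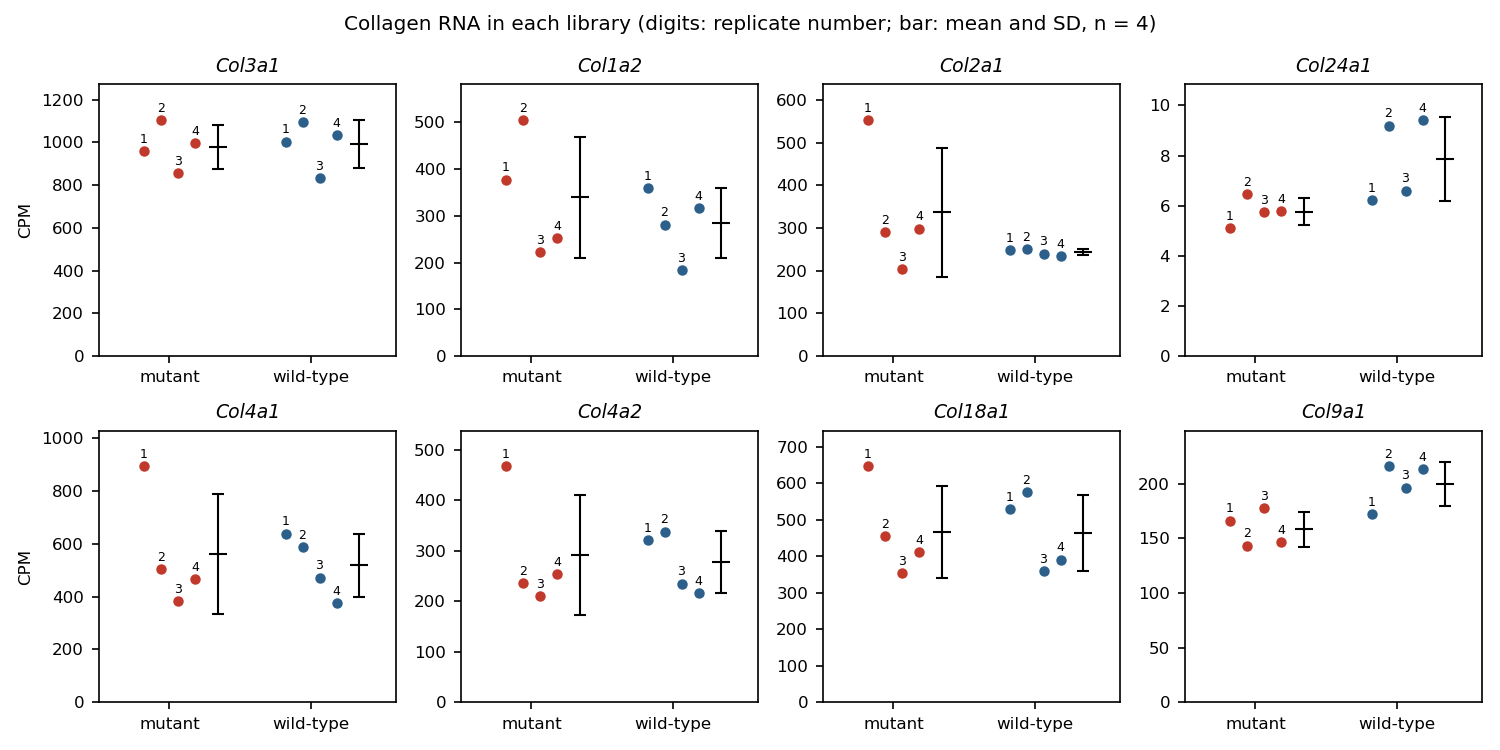
CPM of 8 collagens in each library, mutants in red on the left and wild-type in blue, with the replicate number above each point and the mean and SD (n = 4) as a bar. Mutant 1 is the highest library for Col2a1 (553 CPM) and Col4a1 (892 CPM), and the ranges overlap in every panel.

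Among basement membrane collagens, Col4a1, Col4a2, Col4a5 and Col4a6 were highest in mutant 1. Without that library the median log2 fold change of the class was below 0. The sparse Col4a3 and Col4a4 were highest in other libraries. Col4a1 (ENSMUSG00000031502.11, chromosome 8, 11198423 to 11312826, minus strand), which supplies most chains of the common type IV network, was at 892, 504, 382 and 467 CPM in mutants, against 638, 587, 472 and 375 CPM in wild-type embryos. Its partner Col4a2 (ENSMUSG00000031503.13, chromosome 8, 11312805 to 11449287, plus strand) was at 467, 236, 210 and 254 CPM in mutants and 322, 338, 235 and 216 CPM in wild-type embryos. For both genes mutant 1 was the highest library, and the other 3 mutants lay within or just below the wild-type range. The log2 fold changes were 0.12 (interval -0.54 to 0.77) and 0.07 (-0.57 to 0.71), and without mutant 1 they were -0.19 and -0.24.

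The pair is transcribed head to head, and the annotated starts lie 21 bases apart with the first exons overlapping, so the 300-base windows share 78 bases. Both windows are shown, each 5′ to 3′ on its own strand (RefSeq, GRCm38.p6), with the same motifs in capitals.
Col4a1, chr8:11312777-11313076, minus strand: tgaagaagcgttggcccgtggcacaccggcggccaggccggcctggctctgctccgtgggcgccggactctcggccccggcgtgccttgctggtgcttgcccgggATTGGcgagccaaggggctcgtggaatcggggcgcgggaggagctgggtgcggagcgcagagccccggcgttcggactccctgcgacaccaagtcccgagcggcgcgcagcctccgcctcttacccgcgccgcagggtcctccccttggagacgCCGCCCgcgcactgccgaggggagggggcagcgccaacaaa
Col4a2, chr8:11312555-11312854, plus strand: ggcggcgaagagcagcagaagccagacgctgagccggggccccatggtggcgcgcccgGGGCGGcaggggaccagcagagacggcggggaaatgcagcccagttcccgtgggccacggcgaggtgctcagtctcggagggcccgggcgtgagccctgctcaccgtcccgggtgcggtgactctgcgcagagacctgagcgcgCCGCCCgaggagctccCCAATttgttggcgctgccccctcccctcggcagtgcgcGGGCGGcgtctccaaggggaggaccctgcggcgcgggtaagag
They are 74.0% and 73.7% G or C, with 1 and 3 GC boxes, 1 CCAAT box each and no TATAAA, and 1 GC box lies in the shared bases. Over all 38 windows of 35 collagens in the RefSeq table, 60.5% held a GC box, against 35.7% of all 32851 windows. The CCAAT box was in 34.2% against 37.4% and TATAAA in 13.2% against 13.6%. The TCF/LEF core CTTTGA, the site through which β-catenin complexes reach DNA, was in 9 of the 38 collagen windows (23.7%) and in 5257 of all 32851, and in 0 of the 4 windows shown. A match marks letters only, and no binding was measured.

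Col4a5 and Col4a6, a second pair arranged head to head on the X chromosome, were highest in libraries 1 and 2. Col4a5 was at 142, 119, 82.4 and 78.7 CPM in mutants and 111, 110, 80.3 and 78.6 CPM in wild-type embryos. Its mutants were above their same-numbered wild-type in 4 of 4 pairs, in 2 of these by under 3 CPM. Pair 4 was nearly tied, at 78.66 CPM in the mutant against 78.61 CPM. The log2 fold change was 0.15 (interval -0.37 to 0.67). Col4a6, which joins Col4a5 in basement membranes of smooth muscle and some epithelia, was at 40.3, 36.7, 19.4 and 21.1 CPM in mutants and 34.03, 30.9, 22.2 and 20.3 CPM in wild-type embryos (log2 0.13, interval -0.54 to 0.80). For both genes libraries 1 and 2 lay above libraries 3 and 4 in each genotype. Col4a3 and Col4a4, the chains of the mature glomerular membrane, were near the detection limit at 0.406 ± 0.159 and 0.626 ± 0.192 CPM in mutants, against 0.444 ± 0.139 and 0.596 ± 0.266 CPM in wild-type embryos (SD, n = 4 each). The 6 genes had 5 values above and 1 below 0, a median of 0.09 and 0 calls; without mutant 1 the median was -0.09.

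The type IV genes are set here beside markers of vessels and heart muscle. Summed CPM of the 8 endothelial and endocardial markers was 665, 659, 476 and 505 in mutants, against 675, 634, 458 and 504 in wild-type embryos. Summed CPM of the 8 cardiomyocyte markers was 12184, 9090, 5404 and 4725 in mutants and 7727, 8637, 4096 and 3960 in wild-type embryos. Libraries 1 and 2 of each genotype held more of both marker sets, and more basement membrane collagen CPM, than libraries 3 and 4. Mutant 1 had the highest cardiomyocyte sum, while its endothelial sum was close to that of mutant 2, unlike Col4a1. Neural markers ran the other way, at 33.3, 210, 644 and 537 CPM in mutants and 52.2, 138, 531 and 188 CPM in wild-type embryos. The part of tissue composition in the collagen values was not tested.

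**Figure D4:**
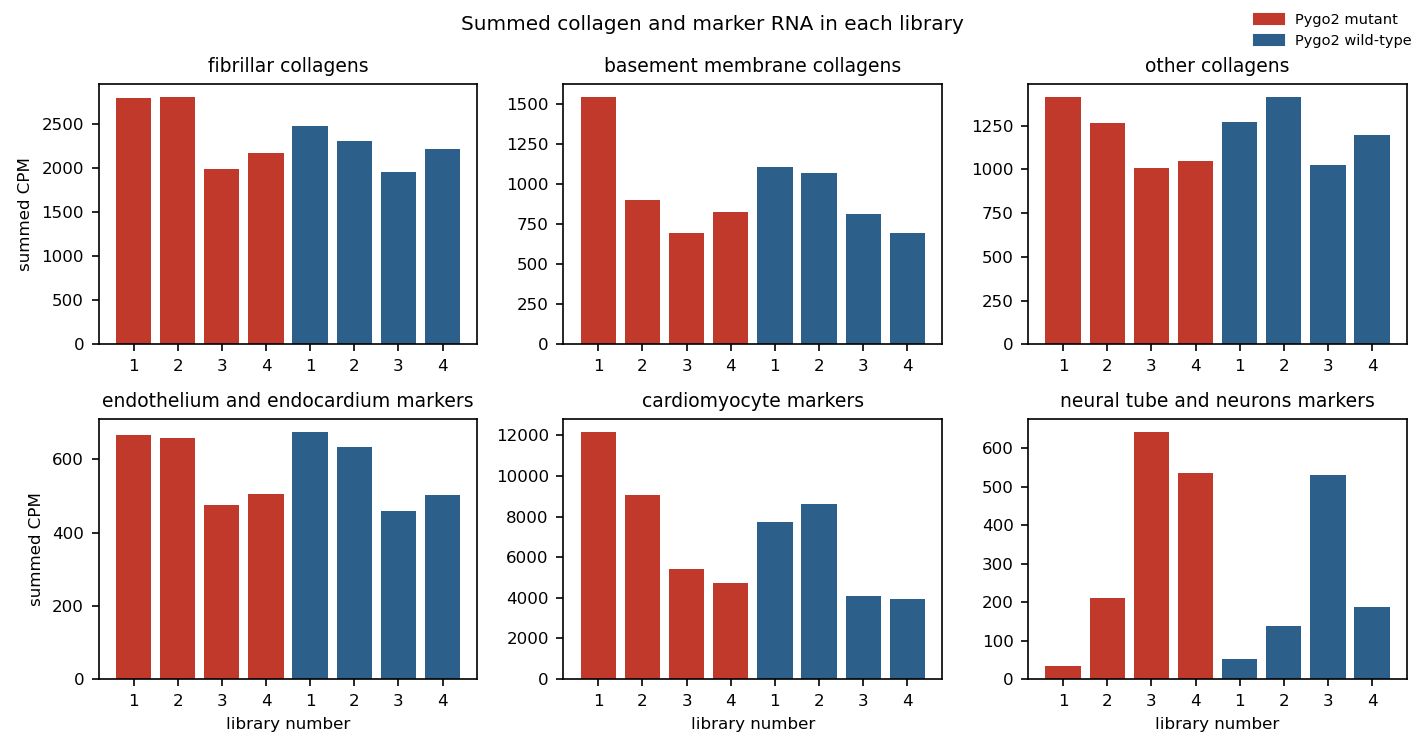
Summed CPM per library of the 3 collagen classes (upper row) and of 3 marker sets (lower row), with mutants 1 to 4 in red left of wild-type 1 to 4 in blue. Mutant 1 has the highest basement membrane sum (1542 CPM) and cardiomyocyte sum (12184 CPM), and mutant 3 the highest neural sum (644 CPM).

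Among the other types, Col18a1 was the most abundant per length and Col9a1 had the smallest p. Col18a1 (chromosome 10, 77052178 to 77166548, minus strand) encodes a multiplexin of basement membranes whose end fragment is endostatin. It was at 646, 455, 354 and 412 CPM in mutants, against 529, 575, 360 and 391 CPM in wild-type embryos, with the same high and low libraries as Col4a1 in mutants and a log2 fold change of 0.01 (interval -0.52 to 0.54). Its relative Col15a1 was at 24.2 ± 9.47 CPM in mutants and 24.1 ± 6.95 CPM in wild-type embryos (SD, n = 4 each).

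Type IX collagen, a heterotrimer that coats type II fibrils, had its 3 chains below the same-numbered wild-type in 4 of 4 pairs, without a call. Over all tested genes 5.88% were lower in 4 of 4 pairs, and the labels do not say what the numbers mark. Col9a1 (ENSMUSG00000026147.16, chromosome 1, 24177610 to 24252684, plus strand) was at 166, 143, 177 and 147 CPM in mutants, against 172, 216, 196 and 213 CPM in wild-type embryos. Only mutant 3 exceeded the lowest wild-type library, and mutants averaged 158 ± 16.1 against 199 ± 20.1 CPM (SD, n = 4 each). The log2 fold change was -0.33 (SE 0.11, interval -0.60 to -0.06; edgeR unadjusted p = 0.0136, adjusted p = 0.99997). Col9a2 was at 20.5, 19.5, 16.99 and 15.96 CPM in mutants and 23.1, 27.7, 18.3 and 17.6 CPM in wild-type embryos, with mutants 1 and 2 inside the wild-type range (log2 -0.25, interval -0.66 to 0.16). Col9a3 was at 10.5, 9.58, 8.48 and 6.72 CPM in mutants and 10.6, 10.2, 8.71 and 8.67 CPM in wild-type embryos. Its first 3 pairs lay close together. Its means were 8.82 ± 1.62 CPM in mutants and 9.54 ± 0.995 CPM in wild-type embryos (log2 -0.11, interval -0.54 to 0.31). Summed CPM of the 7 chondrogenic and arch mesenchyme markers was 711, 672, 581 and 610 in mutants and 642, 779, 711 and 840 in wild-type embryos, lower in 3 of 4 pairs. Most of that sum came from Pdgfra and Prrx1, and the list was split, with 3 markers above and 4 below 0. Sox9, Sox6 and Acan had log2 fold changes of 0.02, 0.19 and 0.25. Sox5, Pdgfra, Prrx1 and Twist1 were at -0.09, -0.13, -0.45 and -0.45. Of the 7, only Prrx1 had an interval on one side of 0 (-0.86 to -0.04), and after adjustment it did not pass. The part of these markers in the type IX values was not tested.

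Other fibril-associated genes spread widely. Col19a1, a fibril-associated collagen of muscle and neurons, had the most negative fold change of the family. Its 4 mutants were at 0.668, 2.32, 0.829 and 1.91 CPM, against 4.41, 2.58, 0.685 and 4.84 CPM in wild-type embryos. Wild-type 3 lay among the mutants, and the log2 fold change of -1.12 (SE 0.59, interval -2.58 to 0.33) did not pass. Col12a1, a fibril-associated chain of dense connective tissue, ranged from 65.6 to 190 CPM in mutants and from 80.8 to 138 CPM in wild-type embryos. Col14a1, Col16a1, Col20a1 and Col22a1 had log2 fold changes from -0.15 to 0.11, and over the 9 genes of this group 3 were above and 6 below 0.

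Transmembrane and less studied types gave no separation either. Col26a1, first found in testis and ovary, was at 107, 115, 92.0 and 99.5 CPM in mutants and 89.8, 126, 100 and 124 CPM in wild-type embryos (log2 -0.09, interval -0.41 to 0.23). Col23a1, a transmembrane collagen, was at 103, 54.0, 70.7 and 74.1 CPM in mutants and 65.7, 75.7, 72.5 and 70.9 CPM in wild-type embryos. Mutants thus held both the highest and the lowest value, around a log2 fold change of 0.08 (interval -0.34 to 0.51). Col13a1, Col17a1 and Col25a1, of the same membrane group, were at 0.21, 0.23 and -0.24, Col25a1 being a collagen of motor nerve targets and Col17a1 a hemidesmosome protein of skin. Col7a1, the anchoring fibril collagen, was at 5.67 ± 0.369 CPM in mutants and 5.52 ± 0.770 CPM in wild-type embryos (SD, n = 4 each), and Col28a1 stayed under 1 CPM in every library.

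Of the 5 tested beaded filament and network genes, 3 had a log2 fold change above 0, again without a call. Col6a1, Col6a2 and Col6a3 encode the chains of type VI beaded filaments, and their log2 fold changes were -0.00, 0.22 and 0.37. Col6a3 was at 42.5, 40.4, 22.3 and 20.1 CPM in mutants against 24.2 ± 2.83 CPM in wild-type embryos (SD, n = 4), so mutants 1 and 2 were above and mutants 3 and 4 within the wild-type range. Col8a1, a short-chain collagen of endothelium and heart valves, was at 7.64, 7.89, 4.07 and 3.68 CPM in mutants and 5.33, 5.50, 2.10 and 3.003 CPM in wild-type embryos. Each mutant was above its same-numbered wild-type, and the log2 fold change was 0.54 (interval -0.38 to 1.47; edgeR unadjusted p = 0.183). With the number as a block its unadjusted p was 0.0149 and its adjusted p 0.968 (edgeR). Under that block 2 collagens were higher (Col8a1 and Col11a1) and 2 lower (Col9a1 and Col24a1) at an unadjusted p under 0.05, where all tested genes had 2.49% and 2.52%. Col8a2, its partner, was at -0.17 (interval -1.03 to 0.69).

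Ratios between chains within a library do not depend on how libraries are scaled, and 7 were compared. The Col4a1/Col4a2 ratio of counts per kb was the tightest, at 1.86, 2.08, 1.77 and 1.79 in mutants and 1.93, 1.69, 1.96 and 1.69 in wild-type embryos, a 1.23-fold range while Col4a1 itself spanned 375 to 892 CPM. The Col1a1/Col1a2 ratio was 0.287 ± 0.0263 in mutants and 0.253 ± 0.0534 in wild-type embryos (SD, n = 4 each), so the RNA of the α2 chain exceeded that of the α1 chain per length in all 8 libraries. With all annotated exons as the length, that ratio was 0.602 in mutants and 0.532 in wild-type embryos. The widest ratio was Col11a1/Col2a1, at 0.124, 0.310, 0.497 and 0.306 in mutants and 0.265, 0.289, 0.327 and 0.373 in wild-type embryos, with mutants 1 and 3 at the extremes. The Col3a1/Col1a1 ratio was 10.7 ± 3.57 in mutants and 14.4 ± 4.64 in wild-type embryos, lower in 3 of 4 pairs, and with all annotated exons as the length it was 6.69 in mutants and 9.03 in wild-type embryos. For Col5a1/Col5a2, Col6a1/Col6a2 and Col9a1/Col9a2 the ratios averaged 0.434, 1.40 and 6.24 in mutants and 0.385, 1.61 and 6.78 in wild-type embryos. Exact two-sided permutation tests over the 70 assignments gave p from 0.171 to 0.800, and 0 ratios differed after adjustment over the 7 (smallest adjusted p = 0.700).

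**Figure D5:**
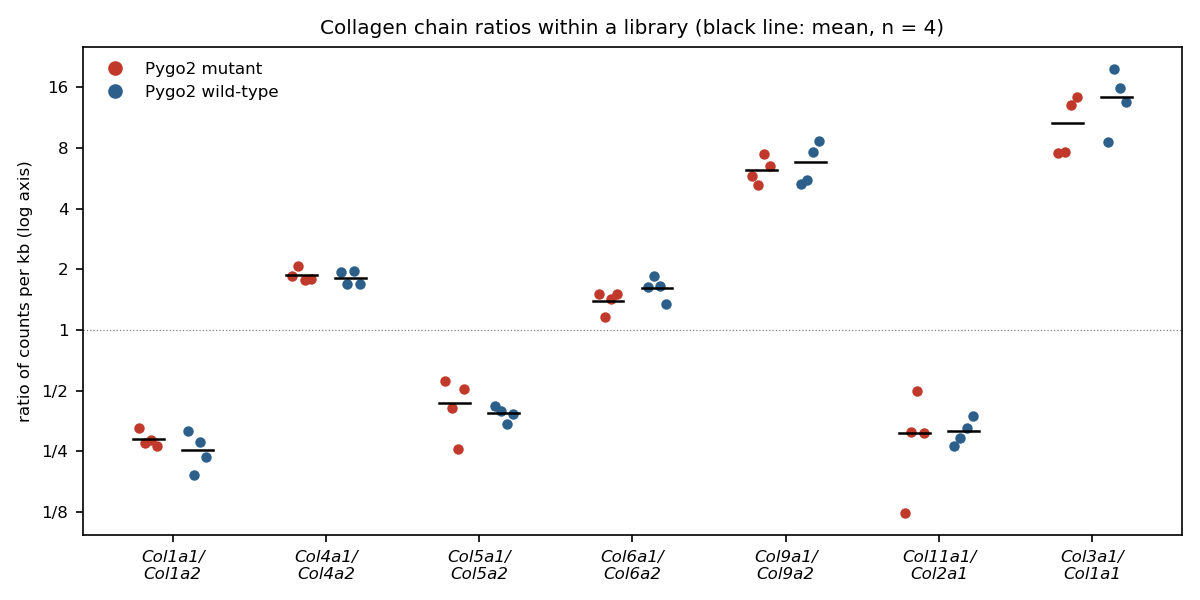
Ratio of counts per kb of exon between 2 collagen chains within each library (log axis), with mutants in red left of wild-type in blue and a black line at the mean (n = 4). Col4a1/Col4a2 stays between 1.69 and 2.08 in all libraries, while Col11a1/Col2a1 runs from 0.124 to 0.497 in mutants.

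The spread between embryos was described by the coefficient of variation. For the 27 members with at least 10 CPM its median was 35.3% in mutants and 21.8% in wild-type embryos, against 14.6% and 12.7% for the 9882 genes of that abundance. Without mutant 1, the highest of the 8 libraries for 15 collagens, the median over the members was 21.7% in the remaining 3 mutants. No other library was left out for this median, and the value over all genes without mutant 1 was not computed. The 21.7% is therefore not like for like with the values from 4 libraries.

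Genes that modify, export, process, bind or degrade collagen did not pass either. Of 96 genes in 8 pathway lists 90 were tested, and edgeR called 0 of them, with 0 at an unadjusted p under 0.05. The fit with the block also called 0, and 5 were higher and 4 lower at an unadjusted p under 0.05, where all tested genes had 2.49% and 2.52%. Tgfb2 had the smallest of these (unadjusted p = 0.00192, adjusted p = 0.876 by edgeR with the block). DESeq2 and limma-voom also called 0 and had 1 each at an unadjusted p under 0.05, Bgn and Adamts2. The 15 hydroxylation and glycosylation genes were split 7 above and 8 below 0, with Glt25d1 (Colgalt1), which adds galactose to hydroxylysine, at 0.12 and Glt25d2 (Colgalt2), its paralog, at -0.22. Plod2, a lysyl hydroxylase needed for cross-links, was at -0.14. In the folding and export list 3 were above and 5 below 0. Serpinh1, the collagen chaperone Hsp47, was at 569 ± 144 CPM in mutants and 673 ± 156 CPM in wild-type embryos (SD, n = 4 each; log2 -0.24, interval -0.77 to 0.29). Creb3l1, a transcription factor of collagen-secreting cells, and Mia3, an export receptor of the endoplasmic reticulum, were at 0.31 and -0.07.

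Processing and cross-linking genes had 6 above and 7 below 0. Adamts2, which removes the amino-terminal propeptide of fibrillar procollagens, was at 1.68 ± 1.14 CPM in mutants and 3.24 ± 1.08 CPM in wild-type embryos, lower in 4 of 4 pairs (log2 -0.94, interval -2.20 to 0.31). Pcolce2, an enhancer of carboxy-terminal propeptide removal, was at -0.13 and Loxl4, a lysyl oxidase, at 0.41. Of the tested fibril partners 6 were above and 4 below 0. Bgn, the proteoglycan biglycan, was at 36.3 ± 8.07 CPM in mutants and 27.8 ± 4.12 CPM in wild-type embryos (log2 0.38, interval -0.04 to 0.81). Dcn, or decorin, was at -0.28 and Thbs1, a matrix glycoprotein, at -0.19, which was 0.34 without wild-type 1.

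Of the 12 basement membrane partners 10 were above and 2 below 0, with a median of 0.16. Hspg2, the heparan sulfate proteoglycan perlecan, was at 408 ± 227 CPM in mutants and 288 ± 108 CPM in wild-type embryos (SD, n = 4 each). Its highest libraries were mutant 1 at 726 CPM and wild-type 1 at 449.9 CPM, against 228.5 to 237.8 CPM in the other wild-type embryos. The log2 fold change was 0.50 (interval -0.43 to 1.44). It was 0.07 without mutant 1 and reached 0.81 in the 8 fits that each lacked a library. Lamb2, a laminin chain, and Agrn, or agrin, were at 0.23 and 0.18. Collagen receptors had 5 above and 4 below 0, with the integrin chain Itga1 at 0.36, the discoidin receptor Ddr1 at 0.26 and the platelet receptor Gp6 at -0.95. The Gp6 value rested on wild-type 1 (2.69 CPM, against 0.30 to 0.55 CPM in the other wild-type libraries), and without it the log2 fold change was 0.25. Degradation genes had 6 above and 5 below 0, among them the gelatinase Mmp9 at 0.38 and the inhibitors Timp3 and Timp1 at 0.18 and -0.15. Of 12 regulators of collagen genes 3 were above and 9 below 0. Sox6, a partner of Sox9 on cartilage collagen genes, was at 0.19 (interval -0.07 to 0.46), the osteoblast factor Sp7 at -0.38 and the growth factor Tgfb2 at -0.45.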

How the data were processed

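The submitters' processing notes name TopHat2 2.0.11, HTSeq 0.6.1, edgeR 3.14 and the mm10 build. Annotation, strand setting and read filters were not given in the sources used here. As deposited by the authors, raw counts per gene symbol were analysed. Their deposited table of log2 fold changes, linear fold, p-value and false discovery rate is quoted only as theirs, and their scaled table was not used. Collagen symbols all matched GENCODE M21 (GRCm38, mm10); length is the union of exons of basic protein-coding transcripts.

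Genes were kept with filterByExpr (14861 genes), scaled by TMM and compared by the quasi-likelihood test of edgeR 4.0.16 (R 4.3.3, two-sided, genotype only), with Benjamini-Hochberg adjustment over all tested genes and a threshold of 0.05. Intervals are 95% intervals with 6 degrees of freedom, wider than the test, which pools the spread over genes. Simulated 4-fold changes (log2 of 2) were recovered in 100% of 50 genes above 5 CPM on the test of mutant against wild-type, 2-fold rises (log2 of 1) in 76% and 2-fold falls (log2 of -1) in 72%, with 7 false calls among 14738 genes. The simulated spread followed the trend over all genes, while abundant collagens varied more than other genes of that abundance. More genes were changed in the simulation than were called in the data, which eases the adjusted threshold. These shares may therefore be too high for collagens. DESeq2 1.42.0, limma-voom (limma 3.58.1), other scaling, no filter, a replicate block and leaving out each library were tried.

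Deviations from the group means correlated at 0.56, 0.18, 0.68 and 0.19 in the same-numbered pairs 1 to 4. Mutants 2 and 4 correlated best with wild-type 1 (0.48) and wild-type 3 (0.63). All 4 same-numbered values exceeded 0.1, but so did mutant 1 with wild-type 2 (0.43) and mutant 3 with wild-type 4 (0.25). These values therefore cannot show that the numbers pair the libraries, and the labels do not say what they mark. Counts over same-numbered pairs and the fit with the block take the pairing as given. Embryos are separate animals. In each class, values in every library are given for the 4 members highest per length and the 3 with the smallest p. Values in every library for Col8a1, Col6a3 and Col9a3 and the pathway or ratio remarks beyond this were chosen after values were seen. Of each pathway list the 3 with the smallest p are named. Members and lists were chosen with earlier results of these data known. The intervals reflect the spread between the libraries of a genotype, each from 1 embryo. The detection limit of 3 counts covers counting error only.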

Additional observations from a re-analysis of the deposited data

Results flagged for a closer look

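In 9 of 182 groups of 4 libraries checked, the library at one end lay further from the other 3 than Dixon's 95% limit of 0.829 allows for the gap as a share of the range; chance marks about 5% of groups. Mutant 2 was set apart for Col25a1, a transmembrane collagen (43.5 CPM, against 29.3 to 31.2 CPM in the other mutants), and for Col14a1, a fibril-associated collagen (11.9 CPM, against 4.11 to 4.88 CPM). Wild-type 3 was low for Col6a3, a beaded filament chain (20.004 CPM, against 25.3 to 25.9 CPM in the other wild-type embryos). Mutant 1 was high for the receptor Ddr1 (122 CPM, against 64.9 to 73.6 CPM), and mutant 4 was low for the osteoblast factor Sp7 (0.506 CPM, against 0.791 to 0.845 CPM). Wild-type 1 was high for Hspg2 (449.9 CPM, against 228.5 to 237.8 CPM in the other wild-type embryos), Thbs1 (407 CPM, against 123 to 164 CPM) and Gp6 (2.69 CPM, against 0.300 to 0.550 CPM). In the same library the erythroid markers summed to 23845 CPM, against 4841 to 7627 CPM in the other wild-type embryos, and their part in these values was not tested.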

How the results depend on the processing

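The count of 0 called collagens in each direction held under all 13 other fits: DESeq2, limma-voom, DESeq2 size factors, no filter on low counts, the replicate block and each library left out. The block changed no call, among collagens or pathway genes; with 4 pairs the exact sign-flip test of the chain ratios cannot go below p = 0.125, so it says nothing of them. With the block 2 collagens were higher (Col11a1 and Col8a1) and 2 lower (Col9a1 and Col24a1) at an unadjusted p under 0.05, against 2.49% and 2.52% of all tested genes. Col9a1 had an unadjusted p under 0.05 in each of the 13. These fits reuse the same libraries, and Col9a1 was named for its small p, so they are not independent evidence. Over all genes the count called lower, Pygo2 alone, was 0 or 1 in the 8 fits that each lacked a library. It was 0 without mutant 2, 3 or 4 or wild-type 1 or 2, while the log2 fold change of Pygo2 ran from -1.46 to -1.35.

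The sign of several uncalled values depended on single libraries. In these 8 fits the log2 fold change ran from -0.19 to 0.26 for Col4a1, -0.24 to 0.20 for Col4a2, -0.0187 to 0.27 for Col4a5, -0.0535 to 0.28 for Col4a6, -0.0919 to 0.0414 for Col3a1, -0.0835 to 0.15 for Col5a2, -0.18 to 0.13 for Col18a1 and -0.10 to 0.22 for Col23a1. It ran from -0.0408 to 0.49 for Creb3l1, -0.38 to 0.34 for Thbs1 and -1.26 to 0.25 for Gp6. Class medians ran from 0.12 to 0.26 (fibrillar), -0.09 to 0.23 (basement membrane) and -0.13 to 0.08 (other). The difference in log2 ratio, mutant minus wild-type, ran from -0.00499 to 0.0818 for Col4a1/Col4a2, -0.0279 to 0.35 for Col5a1/Col5a2, -0.21 to 0.0248 for Col9a1/Col9a2 and -0.45 to 0.22 for Col11a1/Col2a1. The cause was not tested. Summed CPM over unscaled totals kept the sign of every class difference. In simulated data of this size some 2-fold changes were missed.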
